A study of Monascus purpureus with 6 samples.

Results

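The genes described here are the 9 genes of the stretch from C5.124 to C5.137, on scaffold C5, that the study of *Monascus purpureus* names in its pigment pathway, its gene text or its list of transcription factors. They are evm.TU.C5.124, evm.TU.C5.127, evm.TU.C5.128, evm.TU.C5.130, evm.TU.C5.133, evm.TU.C5.134, evm.TU.C5.135, evm.TU.C5.136 and evm.TU.C5.137, written below as C5.124 and so on. They were looked up by identifier among the 7491 rows of the count table. Their choice was not free of these data, since the list of transcription factors that holds C5.136 was limited to genes that changed between these same libraries, and C5.124 and C5.133 were named for their increase in them. The calls of these 3 genes are therefore no independent evidence of direction. The study also reported C5.127, C5.128, C5.134, C5.135 and C5.137 as higher in winter in these same libraries, so their calls repeat that comparison. All 9 passed the filter on low counts that left 7355 rows to be tested. The mutant strain is winter, a hygromycin-resistant transformant of YY-1 made with the resistance cassette of the plasmid pHPH. It was picked in a screen for low citrinin and is a single clone whose insertion site is not given in the sources used here. The parent strain YY-1 carries no cassette. Both strains were grown for 8 days, and mycelial RNA of 3 independent cultures of each, lettered a, b and c, was sequenced. No gene of the table is annotated as a marker of mycelium, so that label could not be checked.

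*Monascus* pigments are azaphilones, polyketides that carry a fatty acyl side chain. A polyketide synthase (PKS) builds the core, a fatty acid synthase (FAS) builds the acyl chain, and an acyltransferase joins both into the orange pigments. Reduction of the orange pigments gives the yellow ones, and a reaction with amines gives the red ones. As in many fungi, the genes for these steps stand next to each other in the genome. Fungal FAS is made of separate α and β subunits. C5.137 encodes the PKS, C5.127 and C5.128 encode the FAS pair, and C5.134 encodes the acyltransferase. In the terms assigned by the study, C5.127 has enoyl-[acyl-carrier-protein] reductase activity, which belongs to the β subunit in yeast, and C5.128 has holo-[acyl-carrier-protein] synthase activity, which belongs to the α subunit there. C5.124 is described as an ortholog of *azaH* of *Aspergillus niger*, which encodes a flavin-dependent monooxygenase that closes the pyran ring, and C5.133 as an ortholog of *MpigE* of *M. ruber*. C5.135 and C5.130 are placed at the step from orange to yellow pigment, and C5.130 is also listed as an aldehyde dehydrogenase. C5.136 is a transcription factor candidate. The identifiers matched 0 entries of the reference gene table, which is for another strain, so sequences and coordinates are not shown.

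The libraries held 15194009 to 16004947 counts in winter and 9661178 to 10595943 counts in YY-1. Over all tested genes Spearman's rho was 0.980 to 0.995 between winter libraries, 0.977 to 0.985 between YY-1 libraries and 0.883 to 0.920 between strains. Levels are given as CPM, the counts scaled to a common library size with edgeR's trimmed mean of M-values (TMM). They are not divided by gene length, which was not used here, so a level is compared between libraries and not between genes. Fold changes divide winter by YY-1 and are given as log2 with their standard error (SE), and adjusted p is from edgeR's quasi-likelihood test over all 7355 genes. RNA from whole cultures cannot tell more RNA per hypha from more hyphae that express a gene.

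In winter 8 of the 9 pigment genes were higher than in YY-1 at an adjusted p below 0.05, none was lower, and C5.130 passed in neither direction. None was lower at an unadjusted p below 0.05 or with DESeq2 either. The background was high, since 22.5% of all tested genes were called higher and 25.5% were called lower in winter. These were 1658 and 1873 genes, against 1260 and 2039 when the libraries were scaled by their totals alone. All 8 genes rose by more than 2-fold, as did 8.92% of all tested genes. The rises were 2.29-fold to 6.14-fold, and the median log2 fold change was 1.66 over all 9 genes and -0.03 over all tested genes. In each of the 8 genes every winter library was above every YY-1 library, which held for 26.8% of the tested genes. With any of the 6 libraries left out, the count stayed at 8.

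**Figure D1:**
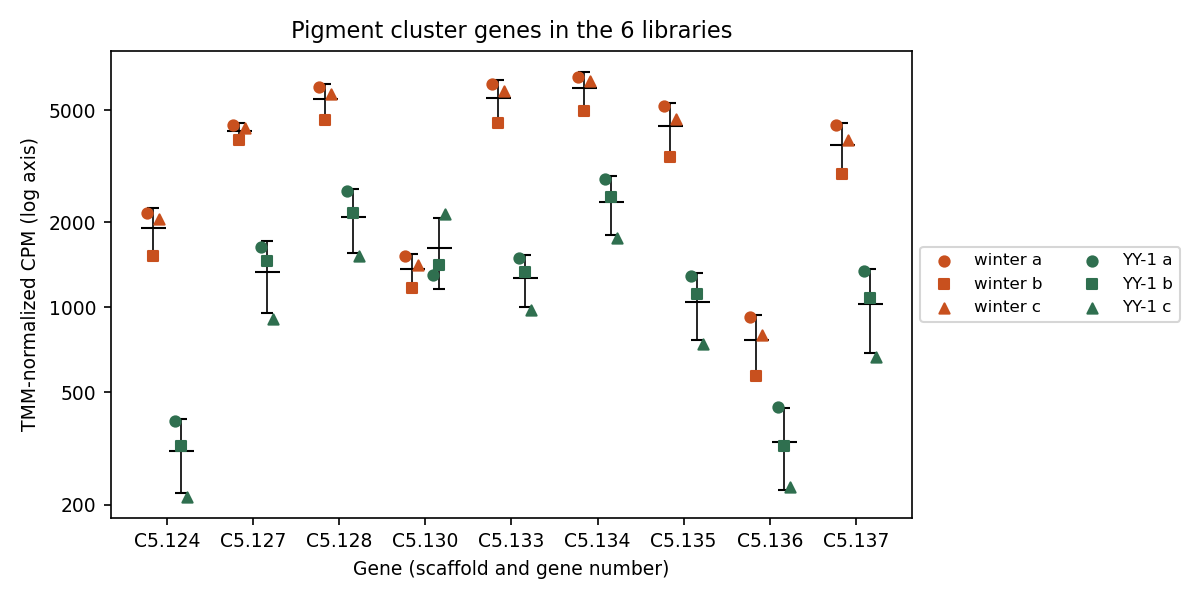
TMM-normalized CPM (log axis) of the 9 pigment genes in the 3 winter libraries (orange) and the 3 YY-1 libraries (green), with a bar and whiskers for the mean ± SD of each strain. The strains are apart in every gene but C5.130, whose YY-1 culture c (2143 CPM) is the highest of its 6 values.

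The PKS gene C5.137, which makes the core of the pigments, had 4408, 2972 and 3909 CPM in winter cultures a, b and c, against 1346, 1077 and 666 CPM in YY-1 cultures a, b and c. The lowest winter culture was therefore still above the highest YY-1 culture, and of the YY-1 cultures c lay well below a and b. The means were 3763 ± 729 CPM in winter against 1029.7 ± 342 CPM in YY-1 (SD, n = 3 each). C5.137 rose by 1.87 ± 0.29 (SE) on the log2 scale, with an edgeR adjusted p of 0.000509. Of the 9 genes it had the widest spread among the YY-1 cultures, 2.02-fold between the highest and the lowest.

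The FAS gene C5.127 had 4422, 3902 and 4326 CPM in winter cultures a, b and c, against 1641, 1458 and 908 CPM in YY-1 cultures a, b and c. Its winter values were the steadiest of all 9 genes, with 1.13-fold between the highest and the lowest, while its YY-1 values differed by 1.81-fold. Its partner C5.128 had 6044, 4615 and 5703 CPM in the winter libraries, against 2593, 2160 and 1526 CPM in the YY-1 libraries. Neither gene overlapped between the strains. The rise was 1.66 ± 0.25 (SE) on the log2 scale for C5.127 (edgeR adjusted p = 0.000492). For C5.128 it was 1.38 ± 0.25 (SE, edgeR adjusted p = 0.00145).

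The acyltransferase gene C5.134, whose product joins the fatty acyl chain to the core, had 6571, 4978 and 6330 CPM in winter cultures a, b and c, against 2851, 2457 and 1762 CPM in YY-1 cultures a, b and c. Winter culture b was the lowest of its strain and YY-1 culture c the lowest of its own, as in the PKS and FAS genes, and the strains did not overlap. The 2.53-fold rise (1.34 ± 0.25 on the log2 scale, SE, edgeR adjusted p = 0.00163) was among the smaller ones of the 8 genes.

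The oxidoreductase genes C5.124, C5.133 and C5.135 had the 3 largest rises of the 9 genes. C5.124, the *azaH* ortholog, had 2154, 1519 and 2056 CPM in the winter libraries a, b and c, against 396, 323 and 214 CPM in the YY-1 libraries. Its 6.14-fold rise (2.62 ± 0.27 on the log2 scale, SE, edgeR adjusted p = 3.88e-05) was exceeded by 0.802% of all tested genes. C5.133, the *MpigE* ortholog, had 6159, 4503 and 5838 CPM in winter and 1497, 1338 and 980 CPM in YY-1, in the same order of cultures. C5.133 had the smallest spread of the 9 genes among the YY-1 cultures, 1.53-fold, and its log2 fold change was 2.113 ± 0.25 (SE, edgeR adjusted p = 9.70e-05). C5.135, at the step from orange to yellow, had 5171, 3397 and 4635 CPM in winter libraries and 1287, 1112 and 742 CPM in YY-1 libraries. Its rise of 2.07 ± 0.27 (SE) on the log2 scale, with an edgeR adjusted p of 0.000188, was close to that of C5.133. Neither overlapped between the strains.

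The transcription factor candidate C5.136 had 921, 570 and 799.7 CPM in winter cultures a, b and c, against 445, 324 and 230 CPM in YY-1 cultures a, b and c. This was the smallest rise of the 8 genes, 2.29-fold (1.20 ± 0.26 on the log2 scale, SE), with the largest adjusted p among them (edgeR adjusted p = 0.00403). In winter C5.136 varied the most of all 9 genes, by 1.62-fold from the highest culture to the lowest. The strains did not overlap, with 570 CPM in the lowest winter culture against 445 CPM in the highest YY-1 culture.

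C5.130 was the exception. This aldehyde dehydrogenase gene had 1518, 1172 and 1411 CPM in winter cultures a, b and c, against 1303, 1416 and 2143 CPM in YY-1 cultures a, b and c, and the strains overlapped. The means were 1367 ± 177 CPM in winter against 1620 ± 456 CPM in YY-1 (SD, n = 3 each), and the difference on the log2 scale was -0.25 ± 0.23 (SE, edgeR adjusted p = 0.412). When YY-1 culture c was left out, the difference came to 0.01 (edgeR adjusted p = 0.977).

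**Figure D2:**
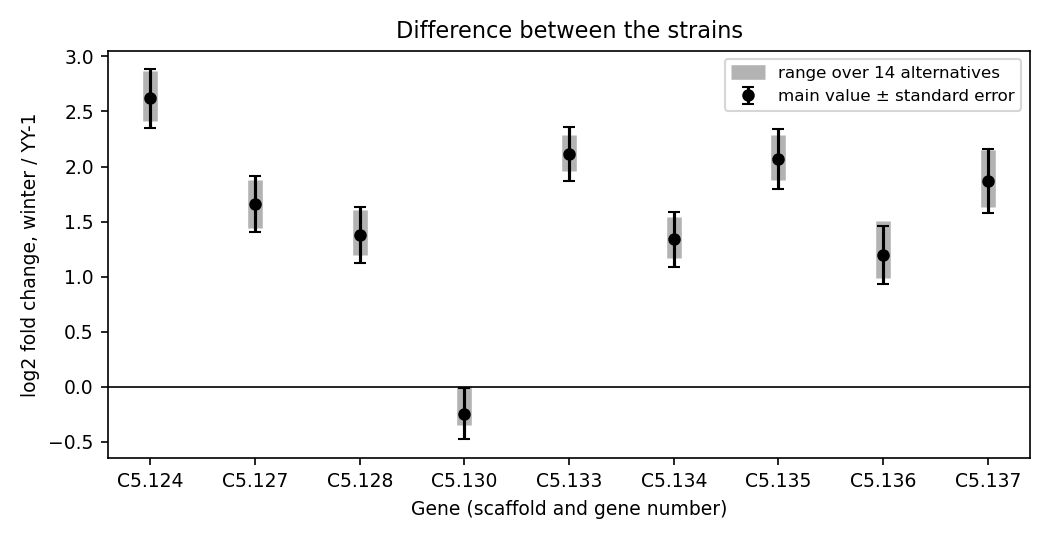
Log2 fold change of winter over YY-1 for the 9 genes in the order of their gene numbers, as the main value with its standard error (black) and the range over 14 alternative fits (grey). All 8 genes other than C5.130 stay above 0 throughout, from 0.99 (the lowest of C5.136) to 2.87 (the highest of C5.124), while C5.130 lies between -0.35 and 0.01.

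Together the 9 genes held 3.43%, 2.87% and 3.33% of all counts in winter cultures a, b and c, against 1.40%, 1.28% and 0.872% in YY-1 cultures a, b and c. The exact 95% interval (Clopper-Pearson, counting error only) was 3.42% to 3.44% in winter culture a and 0.867% to 0.878% in YY-1 culture c. The mean share was 3.21% ± 0.30 in winter and 1.19% ± 0.28 in YY-1 (SD, n = 3 each), a ratio of 2.70. Leaving out 1 library at a time, this ratio was between 2.39 (without YY-1 culture c) and 2.98 (without YY-1 culture a). C5.130 made up 4.11% ± 0.11 of the counts of the 9 genes in winter, against 15.1% ± 7.27 in YY-1 (SD, n = 3 each), with 9.75%, 12.1% and 23.4% in YY-1 cultures a, b and c.

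To compare the proportions between steps of the pathway, the counts of 2 genes were divided within each library. Such a ratio does not depend on how the libraries are scaled, and the lengths of both genes cancel when a ratio is compared between strains. For 9 ratios the difference between strains was tested by an exact two-sided permutation test over the 3 winter and 3 YY-1 libraries, which cannot give a p below 0.1, and p-values were adjusted over the 9 ratios. No ratio could therefore pass 0.05. In 8 of the 9 ratios the strains did not overlap, with p = 0.1 in the exact permutation test (0.112 adjusted). Over all pairs of tested genes with counts in every library, 59.5% did not overlap, so that separated ratios were the usual case in this comparison.

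Within the FAS pair the ratio of C5.127 to C5.128 was 0.732, 0.846 and 0.759 in winter cultures a, b and c, against 0.633, 0.675 and 0.595 in YY-1 cultures a, b and c. The β-type gene thus gained 1.23-fold on its α-type partner in winter, without overlap. The ratio of the PKS gene C5.137 to C5.128 was 0.729, 0.644 and 0.686 in winter and 0.519, 0.499 and 0.437 in YY-1, a 1.42-fold gain of the PKS. The acyltransferase gene C5.134 lost against the PKS as C5.128 did, a 1.47-fold gain of the PKS. C5.134 had 1.49, 1.68 and 1.62 counts per C5.137 count in winter and 2.12, 2.28 and 2.64 in YY-1.

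The ratio of C5.124 to C5.137 was 0.489, 0.511 and 0.526 in winter, against 0.294, 0.300 and 0.321 in YY-1, a 1.67-fold gain in winter. Each strain kept its own value closely, with an SD of 0.0187 in winter and 0.0141 in YY-1 (n = 3 each), although among the YY-1 cultures the level of C5.124 differed by 1.85-fold and that of the PKS gene by 2.02-fold. The transcription factor candidate C5.136 lost against the PKS, with 0.209, 0.192 and 0.205 in winter and 0.331, 0.301 and 0.346 in YY-1. C5.135 had 1.17, 1.14 and 1.19 counts per PKS count in winter and 0.957, 1.03 and 1.115 in YY-1, a narrow separation. For C5.133 the ratios to the PKS were 1.40, 1.52 and 1.49 in winter and 1.112, 1.24 and 1.47 in YY-1, which overlapped (exact permutation p = 0.2).

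Of the 9 ratios tested, the widest shift lay between the genes drawn at the step from orange to yellow. The ratio of C5.135 to C5.130 was 3.41, 2.90 and 3.28 in winter cultures a, b and c, against 0.988, 0.785 and 0.347 in YY-1 cultures a, b and c, a 4.94-fold gain (2.30 on the log2 scale). Without YY-1 culture c the log2 difference was 1.86. Among the ratios not tested, C5.124 to C5.130 shifted more, by 2.87 on the log2 scale, and so did C5.130 to C5.133, by -2.34. Other ratios with C5.130 shifted less, down to -1.44 for C5.130 to C5.136. The wide shift was therefore shared by ratios of C5.130 to other risen genes and was not particular to this step. Against the PKS, C5.130 had 0.344, 0.394 and 0.361 in winter and 0.968, 1.31 and 3.22 in YY-1. Its ratio to the PKS was nearly constant among the winter cultures and varied widely among the YY-1 cultures.

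Among all 36 ratios of the 9 genes, the steadiest was that of the FAS gene C5.128 to the acyltransferase gene C5.134, singled out after its values were seen. It was 0.920, 0.927 and 0.901 in winter cultures a, b and c, against 0.910, 0.879 and 0.866 in YY-1 cultures a, b and c. The range over all 6 libraries was 1.07-fold and the strains overlapped, while the counts of C5.128 ran from 14689 to 88839. Of all 26992878 pairs of genes with counts in every library, 0.00343% had a range as narrow. These pairs include genes with far fewer counts, whose ratios vary more by counting alone. They also include pairs whose genes changed in opposite directions between the strains. Pairs of like abundance or like change were not compared. The next steadiest ratio was that of C5.133 to C5.135, which ranged 1.14-fold over the 6 libraries.

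The 28 ratios without C5.130 ranged over the 6 libraries by a median of 1.71-fold and by 2.99-fold at most. The 8 ratios with C5.130 ranged by 5.46-fold to 14.6-fold. Over all pairs of genes with counts in every library, genes with few counts included, the median was 2.69-fold. The 8 genes in the 28 ratios all rose in winter, and C5.124, C5.133 and C5.136 were named for their change in these libraries. All pairs mix genes that rose with genes that fell, so these medians do not compare like with like. The strains did not overlap in 22 of the 28 ratios and in all 8 ratios with C5.130, against 59.5% of all pairs of genes.

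**Figure D3:**
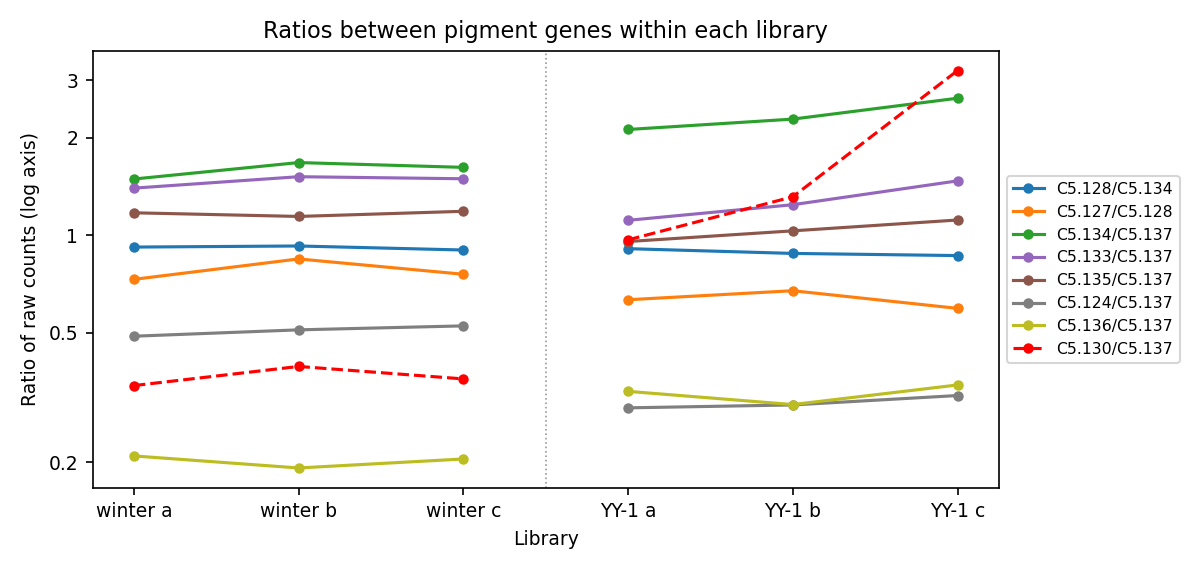
Ratios of raw counts between pigment genes within each library (log axis), with winter on the left and YY-1 on the right, and lines joining the values of 1 ratio. C5.128/C5.134 stays between 0.866 and 0.927 throughout, other ratios step between the strains, and C5.130/C5.137 (red, dashed) reaches 3.22 in YY-1 culture c.

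The cultures of 1 strain also differed in the pigment genes, and mostly in the same way. In YY-1, 8 of the 9 genes were lowest in culture c, against 38.2% of all tested genes. C5.130 was highest there. In winter all 9 genes, C5.130 included, were lowest in culture b, against 44.0% of all tested genes. Both held for 8 of the 9 genes and for 16.5% of the tested genes. These 8 genes were also highest in culture a of both strains, an arrangement shared by 6.4% of the tested genes. Among the 611 tested genes with a mean of at least 300 CPM, the range in which the pigment genes lie, 19.8% were lowest in YY-1 culture c and 57.6% were lowest in winter culture b. The same counts of 8 in YY-1 and 9 in winter were found with library totals alone and with DESeq2's size factors.

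The depth of the deviation differed between genes. In YY-1 culture c the 8 genes lay below their strain mean by 0.57 (C5.137) to 0.35 (C5.133) on the log2 scale, whereas C5.130 lay above it by 0.44. In winter culture b the 9 genes lay below by 0.39 (C5.136) to 0.11 (C5.127). The SD of log2 CPM was larger in YY-1 than in winter for all 9 genes. Its median over the 9 genes was 0.24 in winter and 0.41 in YY-1, against 0.18 in winter and 0.21 in YY-1 over all tested genes. Over the 611 genes of at least 300 CPM the medians were 0.19 in winter and 0.24 in YY-1. With 3 cultures of a strain no correlation was computed.

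**Figure D4:**
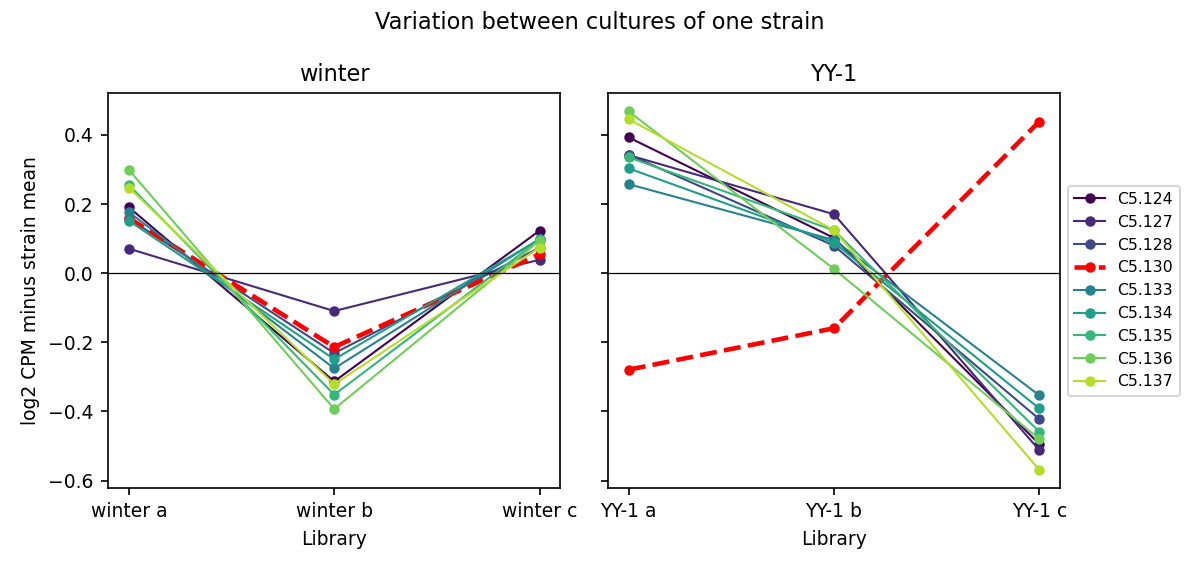
Log2 CPM of each pigment gene minus its mean in the strain, for the 3 winter cultures (left) and the 3 YY-1 cultures (right), with lines joining the values of 1 gene. All 9 genes dip in winter culture b, and all but C5.130 (red, dashed) dip in YY-1 culture c, where C5.130 lies 0.44 above its mean.

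To see how alike the genes were over the 6 libraries, each gene's log2 CPM was centred on its own mean, and the root-mean-square difference (RMS) between profiles was taken as the measure of likeness. Among all 7354 other genes, C5.134 was the most similar to C5.128 and C5.128 the most similar to C5.134, with an RMS of 0.0347. For C5.135 the nearest gene of all was C5.133, and for C5.136 it was C5.134. C5.137 had 6 of the other 8 pigment genes among its 50 nearest genes, C5.127 had 5, C5.133 and C5.135 had 4, and C5.124, C5.128 and C5.134 had 3. C5.136 had 2 and C5.130 had 0. The nearest gene to C5.124 was its neighbour C5.123, among whose assigned terms is fatty acid metabolism. C5.127, C5.130, C5.133 and C5.137 also had a nearest gene that is not among the named pigment genes. These nearest genes were C5.305, C2.770, C5.125 and C5.132, in that order. C5.130 was far from the rest, since its most similar pigment gene, C5.136, ranked 6818 of 7354. Each profile spans both strains, so genes that rose alike lie close by this measure, and C5.130, which did not rise, lies far. C5.124, C5.133 and C5.136 were also named by the study for their change in these libraries. The counts among the 50 nearest of 7354 genes are therefore no independent evidence of likeness.

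The 5 other genes nearest to the mean profile of the 9 were C5.122, C5.305, C2.329, C3.655 and C5.131, with an RMS of 0.0486 to 0.0995. C5.122 lies just before the named stretch and C5.131 within it. The study names C5.305, on the same scaffold, as a citrate lyase gene in a potential pathway to acetyl-CoA, the building block of polyketides and fatty acids. C5.305 had 2000, 1485 and 1878 CPM in winter cultures a, b and c, against 668, 640 and 430 CPM in YY-1 cultures a, b and c. Its lowest value was in culture b of winter and culture c of YY-1, which its choice by likeness to the mean profile largely fixed. The other citrate lyase gene, C5.304, was also lowest in YY-1 culture c. C3.60 and C7.667, which the study names for NADPH regeneration, were highest there. C2.329, to which the study assigned a term for FAD binding, and C3.655, with a term for allantoin catabolism, had lower counts, with means of 13.0 and 65.9 CPM in winter and 3.81 and 23.4 CPM in YY-1.

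Of the 5 genes that stand between the named ones, 3 were higher and 2 were lower in winter, where 22.5% of all tested genes were called higher and 25.5% lower. C5.125, C5.131 and C5.132 rose by 1.40 to 2.01 on the log2 scale, and C5.126 fell by 1.01. C5.129, the neighbour of C5.130, had 2309, 1492 and 1935 CPM in winter cultures a, b and c, against 2993, 2701 and 3364 CPM in YY-1 cultures a, b and c. Like C5.130 and C5.126, it was highest of its strain in YY-1 culture c. Its log2 fold change was -0.66 ± 0.22 (SE, edgeR adjusted p = 0.0332), and the call was lost when culture a or c of YY-1, or culture b or c of winter, was left out, with adjusted p-values of 0.0684 to 0.114.

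The pathway drawn by the study also holds genes outside the stretch on C5, and 8 of them are described here as a list. At an adjusted p below 0.05, 1 rose, 3 fell and 4 did not pass, counts that lie near the shares of 22.5% higher and 25.5% lower among all tested genes. The 8 genes had a median log2 fold change of -0.58 against -0.03 over all tested genes. C8.16, described as an ortholog of *tropB*, was the one that rose, and it was named by the study for that increase in these libraries. It had 84.6, 55.1 and 62.7 CPM in winter cultures a, b and c, against 14.4, 26.7 and 35.3 CPM in YY-1 cultures a, b and c (edgeR adjusted p = 0.00263). Its highest YY-1 value was in culture c, unlike the 8 risen genes of the cluster. C1.1074, C7.13 and C6.841 were also highest in YY-1 culture c, and C6.152 was lowest in YY-1 culture b. C2.24, C2.25 and C2.1146, none of which was called higher, were lowest in YY-1 culture c. C2.24 and C2.25 had the same order of cultures as the 8 genes in both strains.

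At the step from orange to yellow, C1.1074 fell by 1.66 ± 0.28 (SE) on the log2 scale (edgeR adjusted p = 0.000841), with a mean of 1.35 CPM in winter and 4.30 CPM in YY-1. C7.13 and C6.152, drawn at the same step, did not pass, with edgeR adjusted p-values of 0.228 and 0.648. Of the 5 genes drawn at this step, 1 rose, C5.135. C2.25, drawn beside the PKS at the acyl chain, fell by 1.01 ± 0.31 (SE, edgeR adjusted p = 0.0221), but not without YY-1 culture a (adjusted p = 0.115) or winter culture b (adjusted p = 0.0769). C2.24, at the step after the PKS, had a log2 fold change of -0.48 ± 0.21 (SE, edgeR adjusted p = 0.0831), and passed without YY-1 culture c (adjusted p = 0.0106).

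At the step from orange to red, C2.1146 fell by 1.10 ± 0.34 (SE, edgeR adjusted p = 0.0232) and C6.841 had a log2 fold change of -0.68 ± 0.26 (SE, edgeR adjusted p = 0.0502). The call of C2.1146 was lost when culture a or b of YY-1, or culture b or c of winter, was left out, with adjusted p-values of 0.0667 to 0.113. C6.841 passed without YY-1 culture b (adjusted p = 0.0479) or winter culture a (adjusted p = 0.0312), with library totals (adjusted p = 0.0305) or upper-quartile factors (adjusted p = 0.042), and with the stricter filter of 10 counts in every library (adjusted p = 0.0465). Both genes were low, at 3.03 to 3.99 CPM on average in winter and 4.89 to 8.52 CPM in YY-1. The study, with its own DESeq comparison, also reported low levels at the step to the red pigments, but no significant difference between strains. The call of C2.1146 differs from that report.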

How the data were processed

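RNA levels were measured by Illumina sequencing of RNA from 3 cultures per strain. The values deposited by the authors are raw counts per gene without normalization: low-quality reads were removed, reads were mapped by TopHat to transcripts predicted from the YY-1 genome, and reads on unique exons were counted with HTSeq. The labels name TopHat2 2.0.8b and HTSeq 0.5.4p2, and the methods of the study name other versions. Strand and read layout are not given in the sources used here. Reads shared by near-identical PKS or FAS genes are not counted, and the sources say no more on how reads on overlapping genes were treated.

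Libraries were scaled by TMM and genes filtered by filterByExpr in edgeR 4.0.16 (R 4.3.3), which left 7355 of 7491 rows, and strains were compared by the quasi-likelihood test with a single strain term and Benjamini-Hochberg adjusted p-values (threshold 0.05). The SE is the size of the log2 fold change divided by the square root of the F statistic. The script was tested on simulated data. Ratios were tested by exact permutation (scipy 1.17.1). Profiles used log2(CPM + 0.5). Alternatives were other scalings, filters and thresholds, a block for the replicate letter, DESeq2 1.42.0 and leaving out each library. The genes named are the 9 genes, the 8 other pathway genes, the genes between them and the 5 nearest profiles. The genes, lists and tests were chosen with earlier results of these data known. Pigment and citrinin measurements were not analysed here.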

Additional observations from a re-analysis of the deposited data

How the results depend on the processing

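The 8 risen genes kept an adjusted p below 0.05, and their direction, in all 14 alternative fits (112 gene results, largest adjusted p 0.0177). At an adjusted p below 0.001, 5 of the 9 genes were called higher in place of 8. With 1 library left out, the log2 fold change of C5.130 lay between -0.35 (without YY-1 replicate a) and 0.00797 (without YY-1 replicate c), in place of -0.25. Of the other pathway genes, 1 to 4 were called lower with a library left out, in place of 3. Of the 5 genes nearest to the mean profile, 2 remained with Pearson's correlation as the measure, and C5.305 was not among them. With C5.130 left out of the mean, an alternative chosen after seeing the data, 3 remained, C5.305 included. Whether the replicate letters pair the cultures cannot be told from the correlations of deviations from the strain mean across genes. For letters a, b and c these were 0.0985, 0.290 and 0.116. Winter replicates a and b correlated best with the YY-1 replicate of the same letter, but winter replicate c with YY-1 replicate a (0.194). With the replicate block 8 of the 9 genes were again called higher. Depth did not limit these genes, which had 2058 counts or more in every library. Winter is 1 clone, so the insertion and other changes of this clone cannot be told apart, and with 3 cultures of each strain an exact test cannot pass 0.05.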
